A study of Mus musculus with 14 samples.

Results

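Haemogenic endothelial (HE) cells of the mouse aorta at E11 were compared with HE cells of the aorta at E10. The members were the single HE cells in the deposited single-cell tables, chosen by the population and stage in their column names and labels. There were 144 of them, 46 at E11 and 98 at E10, among 1121 single cells in all. The E10 cells came in the sets p20 (37 cells) and p21 (61 cells), named so after the codes in their columns, and the E11 cells in the single set p25. Both groups came from ICR embryos with the genotype given as Gfi+/tomato/ Gfi1b+/GFP, that is, with 1 reporter allele in each locus. Both were sorted from the AGM, the region around the dorsal aorta, as Cdh5+ Gfi1+ Gfi1b- c-kit-. E10 embryos had 28 to 32 somite pairs and E11 embryos more than 40. AGMs were pooled between embryos, and the number of embryos was not given in the sources used here. Each stage was therefore 1 sample, and sets are not replicates: all differences are descriptions with no replicate check, and stage, set and embryo pool cannot be told apart.

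The study sampled endothelial and blood-forming cells of the aorta at both stages to follow how blood stem cells arise. RNA of single cells was counted by CEL-Seq, a 3' end method in which molecular identifiers mark single transcripts. A further 2 sorted populations were used beside HE: non-HE cells, Cdh5+ and negative for Gfi1, Gfi1b and c-kit (43 at E10, 30 at E11), and EHT cells (Cdh5+ Gfi1+ Gfi1b- c-kit+; 191 at E10, 46 at E11). Column names and labels differ in places: E10 non-HE columns are named Early_E11, those of the E10 HE cells E10.5, and those of 11 of the 30 E11 non-HE cells E11.5. The labels were followed, so every stage comparison in non-HE cells rests on them.

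Haemogenic endothelium is the subset of aortic endothelial cells that can turn into blood cells, through a step called the endothelial-to-haematopoietic transition (EHT). Cells in this step lose endothelial junctions, gain blood genes and round up into clusters on the aortic wall. As the aorta matures, its endothelium is exposed to growing blood flow and its wall gains elastic fibres.

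Every E10 cell held 3000 transcripts and every E11 cell 5000, because the authors had reduced all cells of a table to 1 total. The tables also differed in content. The E10 table held no gene whose name starts with Rpl or Rps, and all 102 genes found only in the E11 table had such names, mostly ribosomal proteins. They held 13.98% (13.84 to 14.12) of the E11 HE transcripts, between 9.78% and 20.5% in single cells. Levels are therefore given as transcripts per 3000 transcripts of the 19322 genes that both tables list. Over these genes the E11 HE cells held between 3977 and 4511 transcripts, with a median of 4302. Scaling E11 from its whole total of 5000 instead shifted the median log2 ratio over the genes compared from -0.06 to -0.30. Thinned to 3000 transcripts, E11 cells held a median of 1836 genes, against 1837 in p20 and 1850 in p21. Intervals in parentheses are 95% intervals, exact Poisson for levels, exact conditional for ratios and Clopper-Pearson for shares, and cover counting error only.

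The label was checked against markers of the sort. Cdh5, the endothelial cadherin, was found in 36 of 37 cells of p20, 59 of 61 cells of p21 and 46 of 46 cells of p25. Pecam1, another endothelial adhesion gene, was found in 36, 50 and 43 cells of these sets. Transcripts of Gfi1b were detected in 0 of 98 E10 cells (upper limit 3.69%) and in 0 of 46 E11 cells (upper limit 7.71%). These are shares of cells with a detected transcript and do not check the gate, since Gfi1, for which all cells were sorted, was detected in only 27 of 98 and 8 of 46. Ptprc, the pan-leukocyte CD45 gene, had 1 transcript at E10 and 0 at E11. The 3 sets therefore carried the endothelial markers of their label. Some E10 cells in p21 stood apart. In 1 cell only 2 transcripts of the pan-endothelial list were found together with 8 macrophage markers, and another held 0 pan-endothelial transcripts, 17 of epithelial markers (6 of them Epcam) and 27 of the imprinted long RNA Kcnq1ot1. A different cell of p21 held 102 transcripts of Kcnq1ot1 and 1 cell of p25 held 40. Without the 2 cells poor in endothelial transcripts, 76 genes were higher and 49 lower at E11 by the rule given next, and without the cells rich in Kcnq1ot1 76 and 50.

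At E11, HE cells held far fewer transcripts of DNA replication and mitosis genes and fewer of glycolysis and ribosome biogenesis genes. They held more transcripts of some matrix genes, Eln foremost, of several genes known to respond to blood flow, and of the pan-endothelial list as a sum. Of the 1566 genes with a level of at least 0.5 at 1 of the stages, 75 (4.79%) were at least 2-fold higher at E11 and 49 (3.13%) at least 2-fold lower, on ratios with 0.1 added to each level. With E11 scaled from its whole total the split was 42 higher and 90 lower, so the balance of directions depends on that choice. The median log2 ratio was -0.06, with quartiles of -0.37 and 0.35. By the ratio to each E10 set, with the minimum still on the pooled levels, 50 genes (3.19%) were higher than both sets and 32 (2.04%) lower. Between the E10 sets, 60 genes (3.83%) were 2-fold higher in p21 and 11 (0.702%) lower, so sets of 1 stage also differed, and the list results below are read against these shares.

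**Figure D1:**
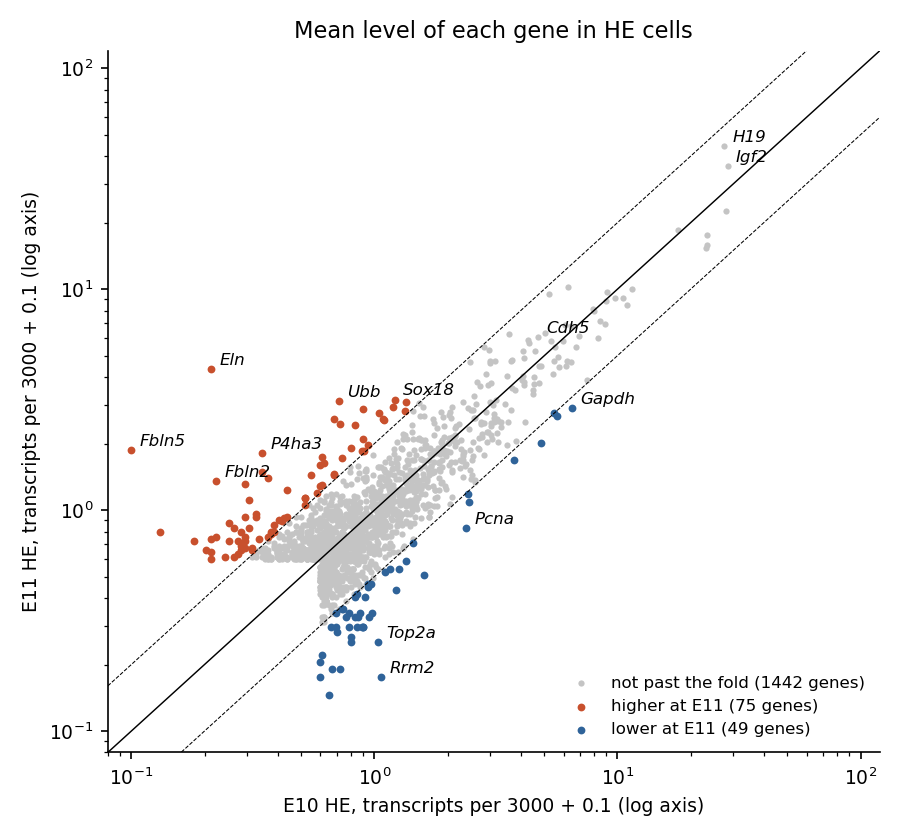
Mean level of each of the 1566 genes in E10 HE cells (x axis) and E11 HE cells (y axis), in transcripts per 3000 with 0.1 added, on log axes; the solid line marks equal levels and the dashed lines a 2-fold difference. The 75 genes higher at E11 lie above the upper dashed line, with Eln and Fbln5 farthest from it, and the 49 lower genes, Rrm2 among them, lie below the lower one.

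The largest coherent difference was in the cell cycle. Of 17 DNA replication genes compared, 15 were lower at E11 and 0 higher, beside 3.13% of all genes compared, and their median log2 ratio was -1.46. Most of these 15 reached the minimum of 0.5 only at E10, which favours lower calls. With a pseudocount of 0.5 only 6 of all genes compared were lower, so most of these 15 calls were lost. With the minimum set on the mean of both stages, a choice made after the data were seen, 5 of 6 were lower, beside 2.10% of all 1240 genes, and the 33 members left out of the first count summed to 7.21 at E10 and 3.11 at E11 (log2 ratio -1.21, -1.45 to -0.99). The summed level of the list was 22.8 in p20 and 20.3 in p21, and 7.45 at E11 (6.80 to 8.13), a log2 ratio of -1.51 (-1.66 to -1.37) to the pooled E10 level. Counted cell by cell at 3000 transcripts, the median was 17 in p20, 15 in p21 and 5 in p25. The groups overlapped, yet 85 of 98 E10 cells lay above the E11 median and 4 of 46 E11 cells above the E10 median. Of 12 genes of G2 and mitosis, 9 were lower and 0 higher, with a median of -1.55, and all 9 reached the minimum only at E10. With the minimum on the mean, 4 of 7 were lower and 0 higher, and the 38 members left out of the first count summed to 8.97 and 3.40. The summed level of the whole list was 21.3 in p20, 17.8 in p21 and 6.85 at E11 (6.24 to 7.52). Cells ranged from 1 to 85 transcripts in p20, from 0 to 72 in p21 and from 0 to 54 in p25, with medians of 10, 10 and 3. A minority of E11 cells still held many, as the plot of transcripts per cell shows.

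**Figure D2:**
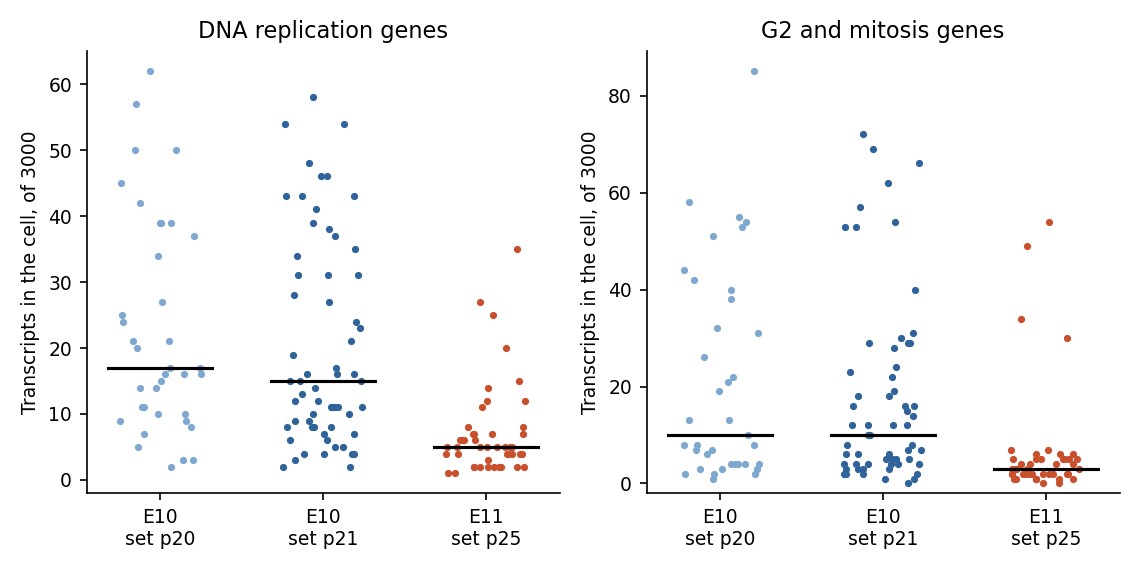
Transcripts of the DNA replication list (left) and of the G2 and mitosis list (right) in each HE cell thinned to 3000 transcripts; each point is 1 cell, grouped by set, and the bar is the median. The E11 medians of 5 and 3 lie below those of both E10 sets, and the highest E11 cell of each list holds 35 and 54 transcripts.

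Rrm2, the small subunit of ribonucleotide reductase that makes DNA precursors, had a level of 1.49 in p20, 0.656 in p21 and 0.0758 at E11 (0.0246 to 0.177). Its transcripts numbered 95 at E10 and 5 at E11, a log2 ratio of -3.68 (-5.33 to -2.40). It was found in 36 of 98 E10 cells and, after thinning, in 2 of 46 E11 cells (3 unthinned). Of the MCM helicase, which opens DNA at replication origins, Mcm5 went from 0.730 in p20 and 0.689 in p21 to 0.152 at E11, and Mcm7 from 0.784 and 0.787 to 0.197. Pcna, the sliding clamp and the most abundant gene of the list, stood at 2.46, 2.18 and 0.728. Uhrf1 and Dnmt1, which copy DNA methylation onto the new strand, had log2 ratios of -2.08 (-3.15 to -1.15) and -1.27 (-1.92 to -0.67), and 2810417H13Rik, a Pcna partner, had -2.01 (-2.99 to -1.16). Each of these genes passed the fold against either E10 set. Of the further MCM subunits, named after their values were seen, Mcm2 and Mcm3 passed it against the pooled E10 cells but only 1 E10 set each, and Mcm4 and Mcm6 did not pass it.

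Mitotic genes followed the same course. Top2a, the topoisomerase that untangles sister chromatids, had a level of 1.05 in p20, 0.869 in p21 and 0.152 at E11 (0.0727 to 0.279), and was found in 39 of 98 and 5 of 46 cells. Ccna2, which encodes cyclin A2, stood at 0.865, 0.475 and 0.0910. Ccnb2, a B-type cyclin, stood at 0.757, 0.459 and 0.0910, and Birc5, which encodes survivin, at 0.568, 0.459 and 0.0758. The cyclin-dependent kinase partner Cks1b had a log2 ratio of -1.87 (-2.52 to -1.27) and the centromeric histone Cenpa one of -2.01 (-2.99 to -1.16). Hmgb2, an abundant chromatin protein of dividing cells, did not pass the fold, with 0.378 in p20, 1.51 in p21 and 0.591 at E11. Ccna2, Ccnb2 and Birc5 were more than 2-fold lower than p21 too, but with p21 as the only E10 set they were not compared, since neither level reached 0.5. Birc5 also lost its call without its top cell, without the macrophage-marker cell and without the cells poor in endothelial transcripts. Its pooled E10 level was exactly the minimum of 0.5, with a log2 ratio of -2.72. Losing a few E10 transcripts therefore ends the comparison whatever the fold.

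Promoters of replication and mitotic genes that were lower together are shown for their shared motifs. Of the 15 and 9 lower genes, 14 and 8 had an entry in the RefSeq promoter table (GRCm38.p6, 300 bases around the start, the first entry of each gene). The motifs were the CCAAT box, the cell cycle element TTTGAA, the E2F sites TTTGGCGC and TTTCGCGC, and the E-box CACGTG, searched on both strands. In the mitotic genes, CCAAT was in 7 of 8 promoters and TTTGAA in 7 of 8, against 37.9% and 18.1% of all 27025 promoters. In the replication genes, CCAAT was in 11 of 14, TTTGAA in 3, TTTGGCGC in 2 and TTTCGCGC in 2, against 0.537% and 0.318% of all promoters for the last pair. CACGTG was in 2 of 14 and 0 of 8, against 7.24% of all. TTTGGCGC was in 0 and TTTCGCGC in 1 of the mitotic promoters. A match is a description of the letters and not of a bound site. The promoters below run 5' to 3' on the gene's strand with matches in capitals: Ccnb2 at chr9:70421505-70421804 and Top2a at chr11:99024140-99024439, both on the minus strand, Mcm5 at chr8:75109259-75109558 on the plus strand and Mcm7 at chr5:138171834-138172133 on the minus strand. In Mcm5 the TTTCGCGC and TTTGGCGC matches overlap, and in Mcm7 a TTTCGCGC match overlaps a CCAAT.
Ccnb2: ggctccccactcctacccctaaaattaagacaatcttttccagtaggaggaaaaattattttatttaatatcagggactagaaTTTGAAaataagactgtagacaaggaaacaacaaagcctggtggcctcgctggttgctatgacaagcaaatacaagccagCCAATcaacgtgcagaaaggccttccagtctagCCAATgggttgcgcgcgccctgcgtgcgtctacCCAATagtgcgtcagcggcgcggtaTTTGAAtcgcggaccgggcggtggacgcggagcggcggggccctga
Top2a: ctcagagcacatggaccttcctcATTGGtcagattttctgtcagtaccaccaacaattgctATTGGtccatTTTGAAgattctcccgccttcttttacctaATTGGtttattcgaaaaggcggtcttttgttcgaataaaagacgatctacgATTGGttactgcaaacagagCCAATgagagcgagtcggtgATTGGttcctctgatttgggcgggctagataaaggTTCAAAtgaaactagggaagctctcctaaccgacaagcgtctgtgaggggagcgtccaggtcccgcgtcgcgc
Mcm5: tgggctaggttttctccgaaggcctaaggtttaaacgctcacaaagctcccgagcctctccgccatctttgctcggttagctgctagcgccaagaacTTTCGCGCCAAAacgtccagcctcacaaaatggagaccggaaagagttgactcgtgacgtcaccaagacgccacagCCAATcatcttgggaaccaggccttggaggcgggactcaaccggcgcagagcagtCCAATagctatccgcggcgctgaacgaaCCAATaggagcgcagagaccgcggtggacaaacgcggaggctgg
Mcm7: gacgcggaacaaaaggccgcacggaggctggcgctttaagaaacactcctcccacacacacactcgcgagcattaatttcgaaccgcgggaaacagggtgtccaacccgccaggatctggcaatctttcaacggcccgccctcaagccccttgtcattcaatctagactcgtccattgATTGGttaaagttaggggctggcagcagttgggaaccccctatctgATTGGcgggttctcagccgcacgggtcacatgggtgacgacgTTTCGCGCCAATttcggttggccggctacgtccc

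Both cell cycle lists were also lower at E11 in EHT cells, by less than in HE cells, but not in pooled non-HE cells. In non-HE cells the DNA replication level was 11.3 at E10 and 12.2 at E11, and the G2 and mitosis level 11.2 and 16.6. For DNA replication the E10 non-HE sets stood apart, with 9.32 in p03 and 15.1 in p04. The E11 sets, with 12.8 in p01 and 11.9 in p19, lay between them. In EHT cells they were 27.1 and 20.03, and 19.38 and 14.98. E11 HE cells thus had the lowest level of both lists among these 6 groups; the differences between populations were not tested.

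Genes that hold back division differed in both directions. Btg2, an antiproliferative early response gene, had a level of 0.432 in p20, 0.410 in p21 and 1.03 at E11. Its relative Btg1 stood at 0.135, 0.426 and 0.789, and did not pass the fold against p21 alone. Neither passed it with E11 scaled from its whole total. Cdkn1c, the imprinted inhibitor of cyclin-dependent kinases, was lower, with 3.03, 1.93 and 0.986, but did not pass the fold against p21 alone. Over the 6 genes of G1 control compared, 2 were higher and 1 lower, and the summed level went from 9.88 to 7.61 (log2 ratio -0.38, -0.53 to -0.22). Cdk4, the most abundant of them, had 2.97, 2.21 and 1.27, just short of the fold.

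Summed levels of glycolysis and ribosome biogenesis genes were lower too, although few single genes passed the fold. Of 9 glycolysis genes, 2 were lower and 0 higher, with a median log2 ratio of -0.71, and the summed level was 19.73 in p20, 17.6 in p21 and 10.98 at E11 (10.2 to 11.8). The 14 members left out of this count summed to 1.224 at E10 and 1.168 at E11. Their log2 ratio of -0.07 had an interval of -0.50 to 0.36, which includes no difference. The lower sum therefore rested on the 9 genes compared, and among them the level of Gapdh fell most. Gapdh, a glycolytic dehydrogenase, had 6.97, 6.02 and 2.79, and was found in every one of the 144 cells. Aldoa, an aldolase, had 2.73, 1.623 and 1.55 and did not pass the fold. Slc2a1, the glucose transporter, had 1.11, 0.639 and 0.303, and did not pass the fold against p21 alone or without its top cell, which held 21.2% of its transcripts. Per cell, 86 of 98 E10 cells held more glycolysis transcripts than the E11 median of 11. Of 8 genes of the Myc and ribosome biogenesis list none passed the fold, yet the median was -0.72 and the sum went from 20.7 to 13.1 (log2 ratio -0.66, -0.77 to -0.54). Npm1, a nucleolar chaperone of ribosome assembly, had 7.97 in p20, 7.07 in p21 and 3.79 at E11. The respiratory chain list, with 64 genes compared and 0 past the fold, went from 77.4 to 61.9 (log2 ratio -0.32). In non-HE cells the glycolysis level was 12.1 at E10 and 11.7 at E11, and in EHT cells 27.3 and 20.1. The E10 non-HE sets stood apart, with 10.57 in p03 and 15 in p04, and the E11 non-HE sets p01 and p19 lay between them.

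Among single genes, Eln and Fbln5 differed most. Eln (chr5:134702593-134747323, GRCm38, GENCODE M21), which encodes elastin, had a level of 0.0811 in p20, 0.131 in p21 and 4.25 at E11 (3.76 to 4.773). Its transcripts numbered 11 at E10 and 280 at E11, a log2 ratio of 5.24 (4.38 to 6.26). It was found in 11 of 98 E10 cells, or 11.2% (5.74 to 19.197), and in 37 of 46 E11 cells, or 80.4% (66.1 to 90.6), after thinning (39 unthinned). E11 cells held between 0 and 16 Eln transcripts, with a median of 4, and the highest E10 cell held 1. Fbln5 (chr12:101746565-101819055), a fibulin needed for elastic fibre assembly, had 0 transcripts in both E10 sets and 117 at E11. With 3 counts set as a floor for the E10 group, that is 58.0-fold higher. The exact lower limit is less, a log2 ratio of 5.54. Fbln5 was found in 27 of 46 E11 cells. Eln and Fbln5 occurred together in 25 of the 46 E11 cells, Eln alone in 12, Fbln5 alone in 2 and neither in 7. Most E11 HE cells thus carried Eln transcripts.

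Some other matrix genes were higher as well. Fbln2, another fibulin, had 0.0270 in p20, 0.180 in p21 and 1.26 at E11 (log2 ratio 3.36, 2.48 to 4.37). Mgp, an inhibitor of vessel calcification, had 3 transcripts at E10 and 46 at E11 (log2 ratio 4.51, 2.87 to 6.84). Ltbp4, which binds latent TGF-beta in the matrix, had 0.730, 0.492 and 2.47. Htra1, a secreted protease, had 0.243, 0.246 and 1.395, and P4ha3, a prolyl hydroxylase subunit for collagen, 0.270, 0.230 and 1.71. Each of these 5 genes was higher in p25 than in either E10 set by more than 2-fold. Over the extracellular matrix list, 7 of 25 genes compared were higher, beside 4.79% of all genes, and 0 lower, with a median log2 ratio of 0.61. Eln, Fbln5, Fbln2 and Mgp reached the minimum only at E11. With the minimum on the mean of both stages 6 of 23 were higher, beside 3.79% of all genes, and 0 lower. The 11 members left out of the first count summed to 0.990 and 1.08, a log2 ratio of 0.12 whose interval of -0.34 to 0.58 includes no difference. The remaining higher members, Col5a2 with 0.796 and 2.77 and Sparcl1 with 0.806 and 1.74 at E10 and E11, are named after their values were seen, and Sparcl1 did not pass the fold against p20 alone or with E11 scaled from its whole total. The list's sum was 61.3 in p20, 54.0 in p21 and 74.7 at E11 (72.7 to 76.8). Its abundant members Fn1, which encodes fibronectin (11.4 and 9.92), and Fstl1, a secreted glycoprotein (5.11 and 9.42), did not pass the fold, nor did the elastic fibre genes Fbn1, Emilin1 and Ltbp1, named after their values were seen. The secreted Wnt modulators Sfrp1 and Dkk2 were also higher, with log2 ratios of 2.93 (1.82 to 4.23) and 2.32 (1.58 to 3.11).

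**Figure D3:**
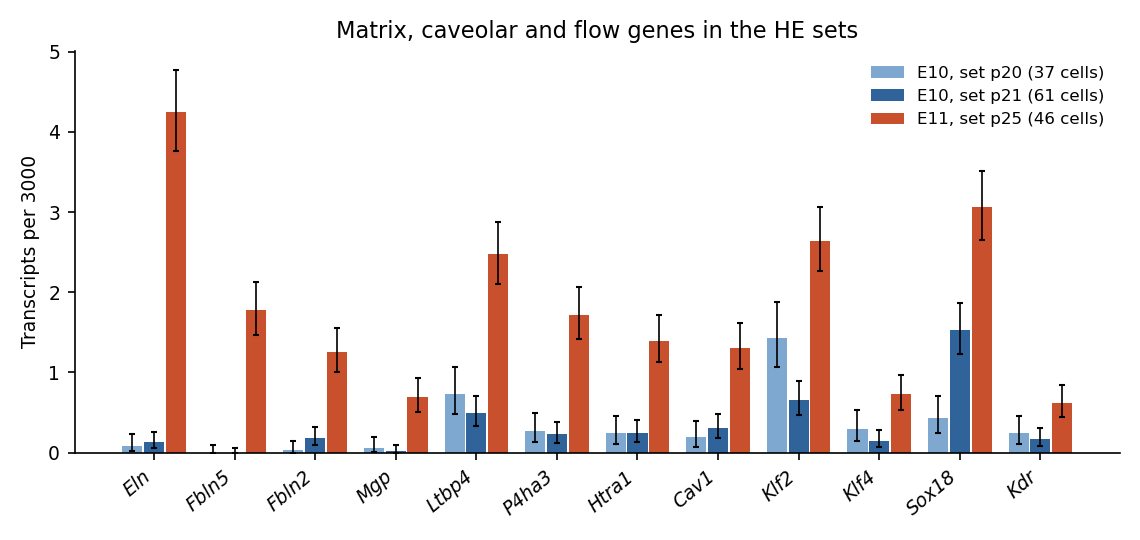
Levels of matrix, caveolar and flow genes in the E10 sets p20 and p21 and the E11 set p25, in transcripts per 3000; bars are set means and error bars exact 95% Poisson intervals, which cover counting error only. Eln reaches 4.25 in p25 against 0.0811 and 0.131 in the E10 sets, whereas Klf2 and Sox18 also differ between the E10 sets.

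Matrix genes were set beside their levels in the other populations. Eln was 4.23 in E10 and 3.83 in E11 non-HE cells, and 0.120 and 0.595 in EHT cells. Fbln5 was 1.98 and 1.74 in non-HE cells and 0 and 0.0483 in EHT cells. Fbln2 was 1.95 and 1.81, and 0.0157 and 0.241. For these 3 genes the E10 HE cells were closer to EHT cells and the E11 HE cells closer to non-HE cells of either label. The columns of the non-HE cells labelled E10 are named Early_E11, so their stage is uncertain. Levels were not always alike: Mgp was 1.67 and 1.56 in non-HE cells, above the 0.698 of E11 HE cells, and P4ha3 was 0.837 and 0.883, below their 1.71. Col5a2 was 1.53 and 1.98, below their 2.77. Of the 1566 genes, 20 (1.28%) were 2-fold higher and 21 (1.34%) lower between the stages in non-HE cells, and 58 (3.70%) and 8 (0.511%) in EHT cells. These genes were chosen by their level in HE cells, which favours calls in HE. The counts therefore do not show which population differed more between the stages. Of the 75 genes higher in HE, 6 were also higher in non-HE and 25 in EHT cells, and of the 49 lower genes 3 and 1 were also lower. The EHT sets differed in other cells too: macrophage markers stood at 0.681 at E10 and 3.78 at E11. The share of unsorted neighbours in the gate was not tested.

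Markers of mesenchyme and smooth muscle, cells that also make elastin, were not higher at E11 as a sum. Their list, 15 of 25 genes seen, summed to 5.70 in p20, 5.30 in p21 and 3.78 at E11 (3.32 to 4.28). Most of it was Mdk, a growth factor (3.72 and 1.96), followed by the actin gene Acta2 (0.867 and 0.485). A single E10 cell held 30 of the 85 Acta2 transcripts at E10. Pdgfrb, Cnn1, Lum, Dcn and Postn were at 0 in both stages. Without Mdk and Acta2 the remaining markers summed to 0.857 at E10 and 1.33 at E11, so that the direction of the sum rests on these 2 genes. The most abundant members that went the other way were Cxcl12 (0.0510 and 0.379), Pdgfra (0.0918 and 0.197) and Col3a1 (0.214 and 0.349). Col1a2, Meox1, Prrx1, Crabp1 and Epha7 also went that way, each on few transcripts. All these members are named after their values were seen.

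Several genes known to respond to blood flow were higher at E11. Of 10 flow response genes compared, 5 were higher and 0 lower, beside 4.79% of all genes, and the median log2 ratio was 0.98. Cav1, Aqp1 and Klf4 reached the minimum only at E11, and with the minimum on the mean of both stages 3 of 8 were higher and 0 lower, beside 3.79% of all genes. The summed level was 8.43 in p20, 7.57 in p21 and 15.2 at E11 (14.3 to 16.2), and the median cell held 8, 7 and 15 transcripts. The transcription factor Klf2, a central flow-induced regulator, had 1.43, 0.656 and 2.64, so that it was more than 2-fold above p21 but less above p20. Its relative Klf4 had 0.297, 0.148 and 0.728. Aqp1, a water channel, had 0.189, 0.131 and 0.773, and Cav1, which encodes the coat protein of caveolae, 0.189, 0.311 and 1.30. The fifth gene, Edn1, the endothelin precursor, had 0.786 at E10 and 1.74 at E11 and is named after its values were seen. It did not pass the fold against p21 alone or with E11 scaled from its whole total. Plxnd1, a semaphorin receptor and the most abundant member, had 2.14, 2.92 and 3.55 and did not pass the fold. In the caveolae list 1 of 4 genes compared, Cav1, was higher, and the sum went from 4.27 to 6.08 (5.50 to 6.71). Its abundant members were Prkcdbp, at 2.64 and 2.35, and Ptrf, at 0.694 and 1.47, which both encode cavins. In non-HE cells the flow response level was 15.6 at E10 and 15.5 at E11, and in EHT cells 3.45 and 5.66.

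The pan-endothelial list was moderately higher as a sum, and few of its genes passed the fold. The pan-endothelial list summed to 56.3 in p20, 51.7 in p21 and 76.2 at E11 (74.1 to 78.3). Of its 26 genes compared 2, Sox18 and Kdr, were higher, beside 4.79% of all genes, with 0 lower and a median log2 ratio of 0.46. Kdr reached the minimum only at E11, and with the minimum on the mean of both stages 1 of 24 was higher, beside 3.79% of all genes. Plvap, Emcn, Ets1 and Fli1, named after their values were seen, were not higher. In 41 of 46 E11 cells the sum lay above the E10 median. Sox18, a transcription factor of vessel formation, had 0.432 in p20, 1.52 in p21 and 3.06 at E11. The E10 sets differed more than 2-fold for this gene, and it did not pass the fold against p21 alone. Kdr, the main VEGF receptor, had 0.243, 0.164 and 0.622. Ramp2, a co-receptor for adrenomedullin and the most abundant of the list, had 6.86, 5.70 and 10.1. In non-HE cells the list went from 73.1 to 66.1 and in EHT cells from 21.6 to 31.4.

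Among ligands and receptors of vessel growth, Vegfa, the main ligand of Kdr, was higher, with 0.0811 in p20, 0.213 in p21 and 0.728 at E11. The VEGF, apelin and Tie list went from 20.01 to 30.1 (28.8 to 31.5), with 2 of 9 genes higher, beside 4.79% of all genes, and 0 lower. Both, Kdr and Vegfa, reached the minimum only at E11, and 0 of 7 were higher with the minimum on the mean. The 11 members left out of the first count summed to 0.969 and 0.743 (log2 ratio -0.38, -0.91 to 0.13). Ramp2, Tie1, Tek and Kdr also belong to the pan-endothelial list, so these sums are not separate results. Nrp1, a co-receptor for VEGF, had 3.53 and 4.6097. In the arterial and Notch list 2 of 18 genes were higher, Dkk2 and the Notch ligand Jag1, beside 4.79% of all genes. The sum went from 27.9 to 36.7 (35.2 to 38.2), and the 6 members left out of the count summed to 0.663 and 0.637. Jag1 had 0.730, 0.902 and 1.87 and did not pass the fold against p21 alone or with E11 scaled from its whole total. The arterial connexins Gja5 and Gja4 did not pass it, with 6.32 and 6.75 for Gja5 and 4.21 and 5.58 for Gja4. The BMP and TGF-beta list went from 9.94 to 13.1 (log2 ratio 0.40, 0.26 to 0.53), and 1 of 8 genes was higher, beside 4.79% of all genes. This gene, Smad7, which inhibits signalling by these receptors, had 0.0811, 0.131 and 0.637. It reached the minimum only at E11, and 0 of 7 were higher with the minimum on the mean. Id3 and Id1, targets of BMP signals, had 2.90 and 2.97, and 1.15 and 1.6225. The junctions list, with 0 of 12 genes past the fold, had a log2 ratio of 0.21, which became -0.01 with E11 scaled from its whole total. The venous and lymphatic list, led by Emcn (1.36 and 1.11) and Stab1 (0.592 and 0.895), had 3.0 and 2.93, with 0 of 3 genes past the fold.

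**Figure D4:**
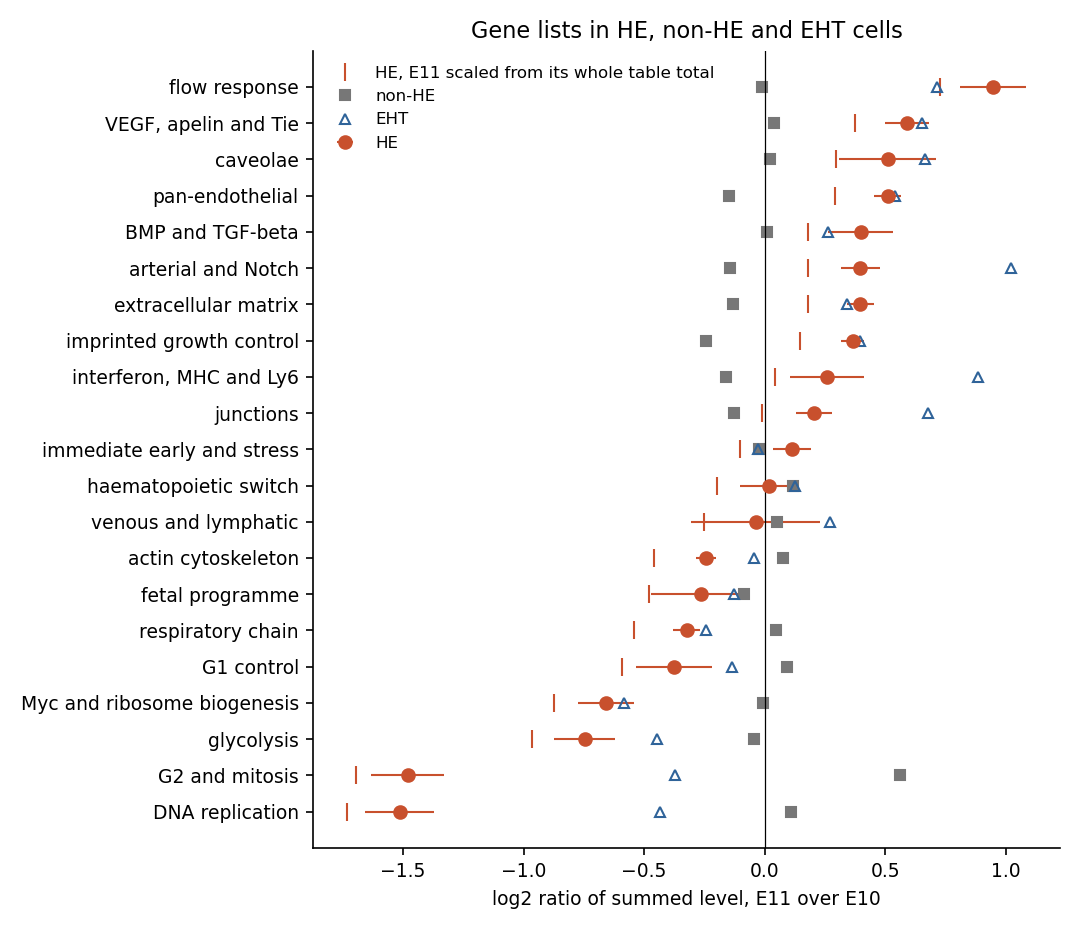
The log2 ratio of the summed level of each gene list with at least 3 genes compared, E11 over E10, in HE (circles, bars are exact 95% intervals for counting error), non-HE (squares) and EHT cells (triangles); vertical ticks give HE with E11 scaled from its whole total. In HE, DNA replication (-1.51) and G2 and mitosis (-1.48) lie lowest and the flow response (0.95) highest, while junctions, immediate early and stress, and the haematopoietic switch change side with the scaling.

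Genes of the haematopoietic switch differed in both directions. Of 13 compared, 2 were higher and 1 lower, beside 4.79% and 3.13% of all genes. The sum was 13.9 at E10 and 14.1 at E11 (log2 ratio 0.02, or -0.20 with E11 scaled from its whole total). With the minimum on the mean of both stages, 2 of 10 were higher, beside 3.79% of all genes, and 0 lower, since Lcp1 reached the minimum only at E10. The 28 members left out of the first count were lower as a sum, with 3.98 and 2.87 (log2 ratio -0.47, -0.73 to -0.22). Procr, the endothelial protein C receptor found on early stem cells, had 1.05 in p20, 0.967 in p21 and 2.46 at E11. Lmo2, an adaptor of blood and endothelial transcription factors, had 0.405, 0.885 and 1.82, and did not pass the fold against p21 alone. Lcp1, an actin-bundling protein of leukocytes, had 0.784, 0.410 and 0.0455, with 54 transcripts at E10 and 3 at E11 (log2 ratio -3.60, -5.92 to -1.97). It was more than 2-fold lower than p21 too, but with p21 as the only E10 set it was not compared, since neither level reached 0.5. Gata2, a blood transcription factor named after its values were seen, had 0.816 and 1.41 and did not pass the fold.

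The genes behind the sort, and Runx1, were sparse. Gfi1, a repressor of endothelial genes and the reporter locus of the gate, had 0.486 in p20, 0.410 in p21 and 0.227 at E11 (0.127 to 0.375), in 27 of 98 and 8 of 46 cells (9 unthinned). Kit, the stem cell factor receptor by which both stages were gated negative, had 26 transcripts in 19 E10 cells and 2 at E11, 1 cell after thinning, a log2 ratio of -3.13 (-6.25 to -1.13). Runx1, the transcription factor required for the transition, had 24 transcripts in 17 E10 cells and 8 in 4 E11 cells, a log2 ratio of -1.01 whose interval of -2.38 to 0.19 includes no difference. None of these genes reached the level of 0.5. In EHT cells Kit stood at 1.29 and 1.223 and Runx1 at 0.733 and 0.611. Cdh5 itself had 4.14, 4.87 and 5.96.

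By the pooled level of each stage, the imprinted growth control list was the most abundant after the actin cytoskeleton. In p21 alone the respiratory chain list, with 77.9, stood above it. The imprinted list stood at 92.7 in p20, 71.6 in p21 and 102 at E11, so that the E10 sets differed by about as much as the stages, and 1 of 11 genes, Cdkn1c, was lower. H19, a long RNA, and Igf2, the growth factor next to it, had 27.3 and 44.3, and 28.3 and 36.0. The actin cytoskeleton list went from 130 to 109, with 1 of 32 genes higher, the myosin light chain Myl12b (0.459, 0.541 and 1.64). The interferon, MHC and Ly6 list had 6.19 in p20, 9.05 in p21 and 9.54 at E11, with 0 of 5 genes past the fold; its abundant genes B2m and Ifitm2 had 1.93 and 2.59, and 2.04 and 1.85. The fetal programme list went from 5.59 to 4.66, with 0 of 3 genes past the fold, and its members Hmga2 and Igf2bp1, RNA and chromatin regulators of fetal growth, had 3.05 and 2.47, and 0.888 and 0.910. In the immediate early and stress list, 2 of 14 genes were higher and 1 lower, and the log2 ratio of 0.11 became -0.10 with E11 scaled from its whole total. The median log2 ratio of the 14 was 0.55. The 19 members left out of the count summed to 1.97 and 3.20 (log2 ratio 0.70, 0.41 to 0.99). The small GTPase Rhob had 0.351, 0.328 and 1.14, and the chaperone Hsp90aa1 2.62, 2.15 and 1.08, the latter not past the fold against p21 alone. The abundant chaperones Hspa8 and Hsp90ab1 had 9.65 and 9.04, and 8.87 and 8.76.

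None of the 10 most abundant genes passed the fold, and their log2 ratios ran from -0.60 for Tmsb4x to 0.70 for H19. Besides H19, Igf2 and Fn1, given above, these were Tpt1, a translationally controlled protein of growing cells (17.7 at E10 and 18.3 at E11), the elongation factor Eef1a1 (27.8 and 22.5), Ptma (23.3 and 15.8), Actb (23.2 and 17.4), Tmsb4x (23.0 and 15.2), Actg1 (10.8 and 8.40) and Ppia (10.4 and 9.04). Of the abundant members of the ribosome biogenesis and respiratory chain lists, Eif4a1, an initiation helicase, had 2.92 and 2.38, and the ATP synthase genes Atp5b and Atp5g2 3.01 and 2.41, and 3.13 and 1.94. Ubb, a polyubiquitin gene, was among the most different (log2 ratio 2.29, 1.87 to 2.74), but its E10 sets also differed, with 0.108 in p20, 0.918 in p21 and 3.002 at E11. Of the 75 higher genes, 12 were also 2-fold higher in p21 than in p20.

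Sex differed between the sets. Xist, the RNA that coats the inactive X, had 0.108 in p20, 0.246 in p21 and 1.21 at E11 (0.962 to 1.51), a log2 ratio of 2.65. At 3000 transcripts, 4 cells of p20 held Xist but no Y-linked transcript and 13 the reverse. In p21 these were 9 and 22 cells, and in p25 31 and 6. No HE cell held both. The part of sex in the other differences was not tested. Over the sex list, with Xist the only gene compared, the sum went from 0.735 to 1.49, and the Y-linked Ddx3y from 0.316 to 0.167.

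Most markers of further cell types were rare, but Stmn2 and Rap1b were not. Stmn2, of the neural list, was found in 45.9% of E10 cells and, after thinning, in 65.2% of E11 cells. Rap1b, of the megakaryocyte and platelet list, was found in 35.7% and 50%. Macrophage markers, 11 of 14 seen, summed to 0.0270 in p20, 0.328 in p21 and 0.0910 at E11; Cd68, Cd14 and C1qa were at 0, the most abundant were Lyz2 with 2 and 3 transcripts and Fcgr3 with 4 and 1, and 13 of the 21 E10 transcripts lay in 1 cell. Erythroid markers, 6 of 13 seen, summed to 0.162, 1.16 and 0.531, led over both stages by the embryonic globins Hbb-y (0.306 and 0.258) and Hba-x (0.173 and 0.152), while Alas2, Klf1 and Gata1 were at 0. A further globin, Hbb-bh1, had 18 transcripts at E10, above the 17 of Hba-x, and 3 at E11. Megakaryocyte and platelet markers, 4 of 10 seen, had 0.694 and 0.864, mostly Rap1b (0.480 and 0.713), followed by Itgb3 (0.184 and 0.136), with Pf4 and Ppbp at 0. Epithelial markers, 7 of 13 seen, had 0.510 and 0.379, led by Krt18 (0.265 and 0.303), with Pax2, Pax8 and Wt1 at 0 and Epcam at 10 and 0 transcripts. Neural and neural crest markers, 7 of 15 seen, had 1.35 and 2.81, nearly all from Stmn2, a regulator of microtubules with 1.23 and 2.70 that did not pass the fold with E11 scaled from its whole total, followed by Elavl4 with 6 and 2 transcripts; Sox10 and Th were at 0. Of the RNA quality list 3 of 16 genes were in the tables, and it had 1.703 in p20, 4.03 in p21 and 2.30 at E11, mostly Kcnq1ot1 (0.946, 3.25 and 1.43), followed by Malat1 (0.673 and 0.834). With p20 as the only E10 set, the macrophage, erythroid, epithelial and RNA quality lists were higher at E11 and not lower. The ribosomal protein list had no gene in both tables and so no value.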

How the data were processed

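Single cells had been sequenced by CEL-Seq. The submitters' processing notes name BWA 0.6.2-r126 and the mm10 build. The deposited values are expected counts: the authors corrected transcripts with molecular identifiers, reduced every cell to a fixed total (3000 in the E10 table, 5000 in the E11 table), dropped shallower cells and added 0.1 to every value. The 0.1 was subtracted here, which gave whole numbers. Of the deposited single-cell columns, 454 were used and 667 were not. Summed transcripts were scaled to 3000 transcripts of the genes in both tables, a choice made after the tables were found to differ in content; scaling from the whole E11 total was run as an alternative. Shares of cells used E11 cells thinned to 3000 with a fixed seed. No cell had the same values as another. Doublets were not called.

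Genes with a level of at least 0.5 at 1 stage were compared, with 0.1 added and a fold of 2. No test was made over cells, since each stage was 1 sample. Named genes were the 12 highest and 12 lowest whose ratio to each E10 set also passed the fold (with the minimum on the pooled levels), with at most 25% of transcripts in 1 cell; for each list up to 4 in each direction and the 2 most abundant; the genes of the sort and Runx1; and the 10 most abundant. Of 100 named genes, 95 had 1 position in GENCODE M21. The members and the 30 gene lists were chosen with earlier results of these data known. Floors were 3 counts and intervals 95%. Calls were tested on simulated data, but no outcome of that check is given here and no result above rests on it. Alternatives changed the depth method, pseudocount, minimum, fold, total, centring, E10 set and cells. Tools were Python 3.11.15, numpy 2.4.6, scipy 1.17.1, pandas 2.3.3 and matplotlib 3.10.9.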

Additional observations from a re-analysis of the deposited data

Results flagged for a closer look

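Over 74 lists and genes, 12 went opposite ways in HE and non-HE cells in every pair of sets, that is, in 2 pairs of HE sets and 4 pairs of non-HE sets, and 0 in HE and EHT cells. The pairs share sets and the genes were chosen for passing the fold in HE, so these counts have no reference value. None of these differences was tested. The non-HE sets also differed otherwise: the RNA quality list stood at 14.2 in p03, 1.2 in p04, 1.32 in p01 and 1.73 in p19, and p03 and p04 held 0 Xist transcripts while p19 held 32 and 0 Y-linked ones. The values below are HE minus non-HE differences of log2 ratios, E11 over E10. For lists lower in HE and higher in non-HE, the difference was -2.04 for G2 and mitosis. For lists higher in HE and lower in non-HE, it was 0.66 for the pan-endothelial list, 0.53 for extracellular matrix, 0.61 for imprinted growth control and 0.42 for interferon, MHC and Ly6. Among genes it was 2.47 for Cav1, 2.45 for Ltbp4, 2.80 for Aqp1 and 3.74 for Vegfa, which were higher in HE and lower in non-HE, and -2.88 for Uhrf1, -3.51 for Birc5 and -3.79 for Ccnb2, which were lower in HE and higher in non-HE. Most of these genes had low levels in non-HE cells, and the differences carry no interval. In non-HE cells Vegfa went from 0.488 to 0.163 and Aqp1 from 0.512 to 0.372. Uhrf1 went from 0.186 to 0.325, Birc5 from 0.256 to 0.442 and Ccnb2 from 0.233 to 0.511. Outside the comparison, genes that the E10 table does not list held 13.98% of the transcripts of E11 HE cells, against 13.9% in E11 non-HE and 18.9% in E11 EHT cells, and no E10 value exists here for them.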

How the results depend on the processing

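Of 232 list values under other settings, 196 stayed close to the reported value, 33 moved and 3 reversed, that is, changed sign where the reported interval excludes 0. The haematopoietic switch, the venous list and the macrophage, erythroid and epithelial markers, whose reported intervals include 0, also changed sign under at least 1 setting. Of 675 values of the 45 named genes past the fold, 84 no longer passed it and 0 reversed, but most of these calls depend on the pseudocount or minimum: 26 genes lost the call with a pseudocount of 0.5, 20 at a minimum of 1 and 16 with the minimum on the mean of both stages. With E11 scaled from its whole total, an alternative added after the data were seen, 42 genes were higher and 90 lower (28 and 59 against each E10 set). The list log2 ratios were then 0.29 for pan-endothelial, 0.18 for arterial and Notch, 0.37 for VEGF, apelin and Tie, 0.73 for flow response, 0.29 for caveolae, 0.18 for extracellular matrix, 0.18 for BMP and TGF-beta, -0.20 for the haematopoietic switch, -1.73 for DNA replication, -1.70 for G2 and mitosis, -0.59 for G1 control, -0.96 for glycolysis, -0.87 for Myc and ribosome biogenesis, 0.15 for imprinted growth control, -0.48 for the fetal programme, 0.042 for interferon, MHC and Ly6, -0.46 for the actin cytoskeleton and -0.54 for the respiratory chain; junctions (-0.012) and immediate early and stress (-0.10) reversed. With p20 as the only E10 set, 130 genes were higher and 89 lower, RNA quality reversed (0.44), and the ratios were 1.71 for erythroid, 0.35 for epithelial and 1.75 for macrophage markers, 0.62 for interferon, MHC and Ly6, 0.14 for imprinted growth control, -1.63 for G2 and mitosis, 0.29 for extracellular matrix, 0.29 for arterial and Notch and 0.44 for pan-endothelial. With p21 alone they were -0.81 for RNA quality, 0.076 for interferon, MHC and Ly6, 0.52 for imprinted growth control and 0.47 for extracellular matrix. The macrophage ratio was 0.14 without cells with macrophage markers and 0.54 without cells poor in endothelial transcripts, an exclusion also added after the data were seen. Higher and lower genes numbered 219 and 193 at a fold of 1.5 (140 and 123 against each E10 set), 167 and 132 at a minimum of 0.2 (109 and 75), 38 and 15 at a minimum of 1 (25 and 10), 19 and 6 with a pseudocount of 0.5 (14 and 3), and 47 and 26 with the minimum on the mean of both stages (29 and 15), also added after the data were seen. The cause was not tested. Genes with levels under 0.5 at both stages were left out of the main counts. No paired analysis was possible because each stage was 1 sample.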
